A study of Mus musculus with 59 samples.

Results

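The alpha-arrestins of mouse skeletal muscle were described from RNA-seq in 59 libraries of the diaphragm, tibialis anterior (TA) and soleus. The 5 genes Arrdc1, Arrdc2, Arrdc3, Arrdc4 and Txnip were taken by symbol from a table of 47643 gene symbols. On GRCm38 (GENCODE M21) Arrdc1 lies at chr2:24925352-24935252 (minus strand), Arrdc2 at chr8:70835129-70839720 (minus), Arrdc3 at chr13:80883384-80896042 (plus), Arrdc4 at chr7:68736995-68749241 (minus) and Txnip at chr3:96557957-96561883 (plus), and all are protein-coding. All 5 passed the filter on low values in every fit. Expression is given as TPM, which scales reads by transcript length and sets every library to the same total and so allows levels of different genes to be set side by side. The sixth alpha-arrestin gene, Arrdc5, is no member of this group. It was listed at 0 TPM in 58 of 59 libraries, and the other library had 0.0478 TPM.

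The libraries came from female NCI Ath/nude mice aged 4 months, a strain without a thymus, and every mouse carried a human melanoma xenograft. The melanoma either caused wasting of the host (cachectic) or did not (non-cachectic), and each kind is a single xenograft, so a difference between the kinds and a difference between these particular tumors cannot be told apart. Diaphragm mice received intraperitoneal recombinant Fibcd1 (rFibcd1), a secreted muscle protein, or a mock injection. In the diaphragm the cachectic melanoma had 10 mock and 10 rFibcd1 libraries and the non-cachectic melanoma 9 mock and 10 rFibcd1 libraries. TA and soleus had 5 libraries of each melanoma, and their labels name no injection. No tumor-free mice were analysed here. The labels call the libraries biological replicates without naming animals, so p-values measure the spread between these libraries.

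Alpha-arrestins are adaptor proteins with an arrestin fold. They bind membrane receptors and transporters through that fold and, through short proline-rich motifs in their tails, recruit ubiquitin ligases of the Nedd4 family, which mark the cargo for endocytosis and lysosomal sorting. Txnip also binds thioredoxin and restrains the glucose transporters GLUT1 (Slc2a1) and GLUT4 (Slc2a4), and it is induced by glucose through the factors MondoA (Mlxip) and ChREBP (Mlxipl) with their partner Mlx. Arrdc4 shares this glucose response, Arrdc1 drives budding of small vesicles at the plasma membrane together with Tsg101, and Arrdc3 promotes the turnover of integrin beta4. Arrdc2 is the least characterized member and is known in muscle as a transcript that responds to glucocorticoids and to loading.

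The promoters of 3 genes are shown because their genes carry the main patterns below. Txnip and Arrdc4 are the glucose-responsive members, and Arrdc2 changed most. Each sequence holds the 250 bases before the gene start in RefSeq on GRCm38.p6, on the coding strand, and capitals mark matches to CACGTG (the E-box), a tandem of CACGAG repeats set 5 bases apart (an element of the kind bound by MondoA and ChREBP), GTAAACA (the core bound by FoxO factors) and CCAAT, searched on both strands.
Txnip, chr3:96557707-96557956, plus strand: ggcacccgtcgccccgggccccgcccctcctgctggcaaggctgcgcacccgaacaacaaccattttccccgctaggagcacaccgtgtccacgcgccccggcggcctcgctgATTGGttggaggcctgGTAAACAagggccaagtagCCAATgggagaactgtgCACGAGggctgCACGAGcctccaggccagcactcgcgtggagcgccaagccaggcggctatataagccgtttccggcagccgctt
Arrdc4, chr7:68749239-68749488, minus strand: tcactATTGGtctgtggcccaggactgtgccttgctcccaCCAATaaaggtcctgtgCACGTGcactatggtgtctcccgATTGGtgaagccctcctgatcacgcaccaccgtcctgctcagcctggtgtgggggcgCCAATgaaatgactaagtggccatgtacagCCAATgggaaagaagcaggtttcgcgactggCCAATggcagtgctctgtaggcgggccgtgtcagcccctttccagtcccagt
Arrdc2, chr8:70839721-70839970, minus strand: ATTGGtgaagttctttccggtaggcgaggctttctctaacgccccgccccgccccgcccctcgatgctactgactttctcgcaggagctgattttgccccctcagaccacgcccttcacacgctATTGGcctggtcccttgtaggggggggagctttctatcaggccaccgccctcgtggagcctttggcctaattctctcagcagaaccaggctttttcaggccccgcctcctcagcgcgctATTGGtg
The Txnip window was the only 1 of 32851 RefSeq promoter windows of the same length with the tandem element, which starts at -85 from the gene start. The letters searched are the form found in Txnip, and looser forms of the element were not searched. The Txnip window also held the FoxO core at -121, a match found in 3.17% of windows, and 2 CCAAT boxes, which 10.1% of windows reach. The Arrdc4 window held the E-box at -193, present in 6.02% of windows, and 6 CCAAT boxes, a number reached by 0.0578% of windows. The Arrdc2 window held 3 CCAAT boxes and neither the E-box nor the FoxO core. AGAACA, the core of glucocorticoid receptor sites, was not in the windows of any of the 5 genes and occurs in 16.1% of all windows. No match overlapped another. These matches describe letters, and no binding was measured here.

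Some features of the libraries touch every result. Pcna-ps2, a processed pseudogene, split the libraries into a high state (from 5.60 TPM) and a low state (up to 0.428 TPM). Low-state diaphragm libraries numbered 1 of 10 cachectic mock, 2 of 10 cachectic rFibcd1, 6 of 9 non-cachectic mock and 4 of 10 non-cachectic rFibcd1. All cachectic limb-muscle libraries were in the high and all non-cachectic ones in the low state, so state and melanoma cannot be told apart there. Mitochondrial transcripts took a mean of 38.1% of TPM in the cachectic and 47.5% in the non-cachectic mock diaphragm, 38.8% and 48.5% in TA, and 30.5% and 41.1% in soleus, and the median log2 fold change of all genes was 0.20, 0.41 and 0.09 in the same order. Of 5 macrophage markers 2 were higher in the cachectic mock diaphragm, and their summed level ranged from 113 to 396 TPM there and from 70.1 to 164 TPM in the non-cachectic group. It was 16.7 to 107 and 9.19 to 21.2 TPM in TA, where 4 of the 4 tested were higher. In soleus it was 31.4 to 149 and 40.5 to 53.0 TPM. Neutrophil markers were higher in all 3 muscles, 3 of 4 in the mock diaphragm (sum 11.1 to 60.9 against 3.92 to 24.5 TPM), 2 of 2 in TA (7.82 to 55.9 against 1.20 to 4.12 TPM) and 2 of 2 in soleus (8.32 to 33.2 against 3.37 to 5.18 TPM). Adipocyte markers were higher for 1 of 5 in the mock diaphragm (sum 180 to 2578 against 124 to 1211 TPM). Endothelial markers were higher for 3 of 5 in the mock diaphragm and for 3 of 5 in TA, where 1 was lower. Fibroblast markers were higher for 1 of 5 in the mock diaphragm and 2 of 5 in TA and lower for 3 of 5 in soleus. The myofibre markers summed to 27630 TPM or more in every library, and 3 of 7 were higher in the mock diaphragm, 2 higher and 3 lower in TA, and 2 higher in soleus, where the sums did not overlap (57670 to 76900 against 45110 to 54680 TPM). In bulk muscle, fewer cells of a type and less RNA per cell cannot be told apart.

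Txnip was by far the most abundant alpha-arrestin in every group. It took 68.1% of the summed TPM of the 5 genes in cachectic TA, its lowest mean share, and 89.3% in non-cachectic soleus, its highest. Its TPM ranged from 131 to 926 over all libraries. Arrdc2 varied most, from 2.25 to 215 TPM. Arrdc3 lay between 11.7 and 76.3 TPM, Arrdc4 between 1.98 and 16.5 TPM, and Arrdc1 between 1.63 and 13.9 TPM.

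The order of the group means differed between the genes. Arrdc2 was highest in cachectic TA, at 157 ± 31.4 TPM (SD, n = 5), followed by the cachectic mock diaphragm and non-cachectic TA, and was lowest in non-cachectic soleus, at 5.26 ± 2.55 TPM (SD, n = 5). Along this order only the first step, between cachectic TA and the cachectic mock diaphragm, exceeded the larger SD of the neighbouring groups. Arrdc3 was highest in cachectic TA, at 51.6 ± 10.9 TPM (SD, n = 5), then cachectic soleus and the cachectic mock diaphragm, and lowest in non-cachectic TA, at 20.4 ± 4.12 TPM (SD, n = 5). No neighbours in the Arrdc3 order differed by more than the larger SD. Txnip shared the first 3 groups of the Arrdc3 order and differed below them, from 469 ± 77.9 TPM (SD, n = 5) in cachectic TA to the mock diaphragm of non-cachectic mice at 262 ± 108 TPM (SD, n = 9), with each step within the SD. Arrdc1 was highest in the 4 diaphragm groups, led by the cachectic rFibcd1 group at 7.81 ± 2.94 TPM (SD, n = 10), and lowest in non-cachectic TA, at 1.92 ± 0.206 TPM (SD, n = 5). Arrdc4 was highest in the rFibcd1 groups, at 9.14 ± 2.23 TPM (SD, n = 10) in non-cachectic and 8.34 ± 3.93 TPM (SD, n = 10) in cachectic mice, and lowest in non-cachectic TA, at 3.12 ± 0.707 TPM (SD, n = 5). For both genes only the last step, down to non-cachectic TA, exceeded the larger SD.

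**Figure D1:**
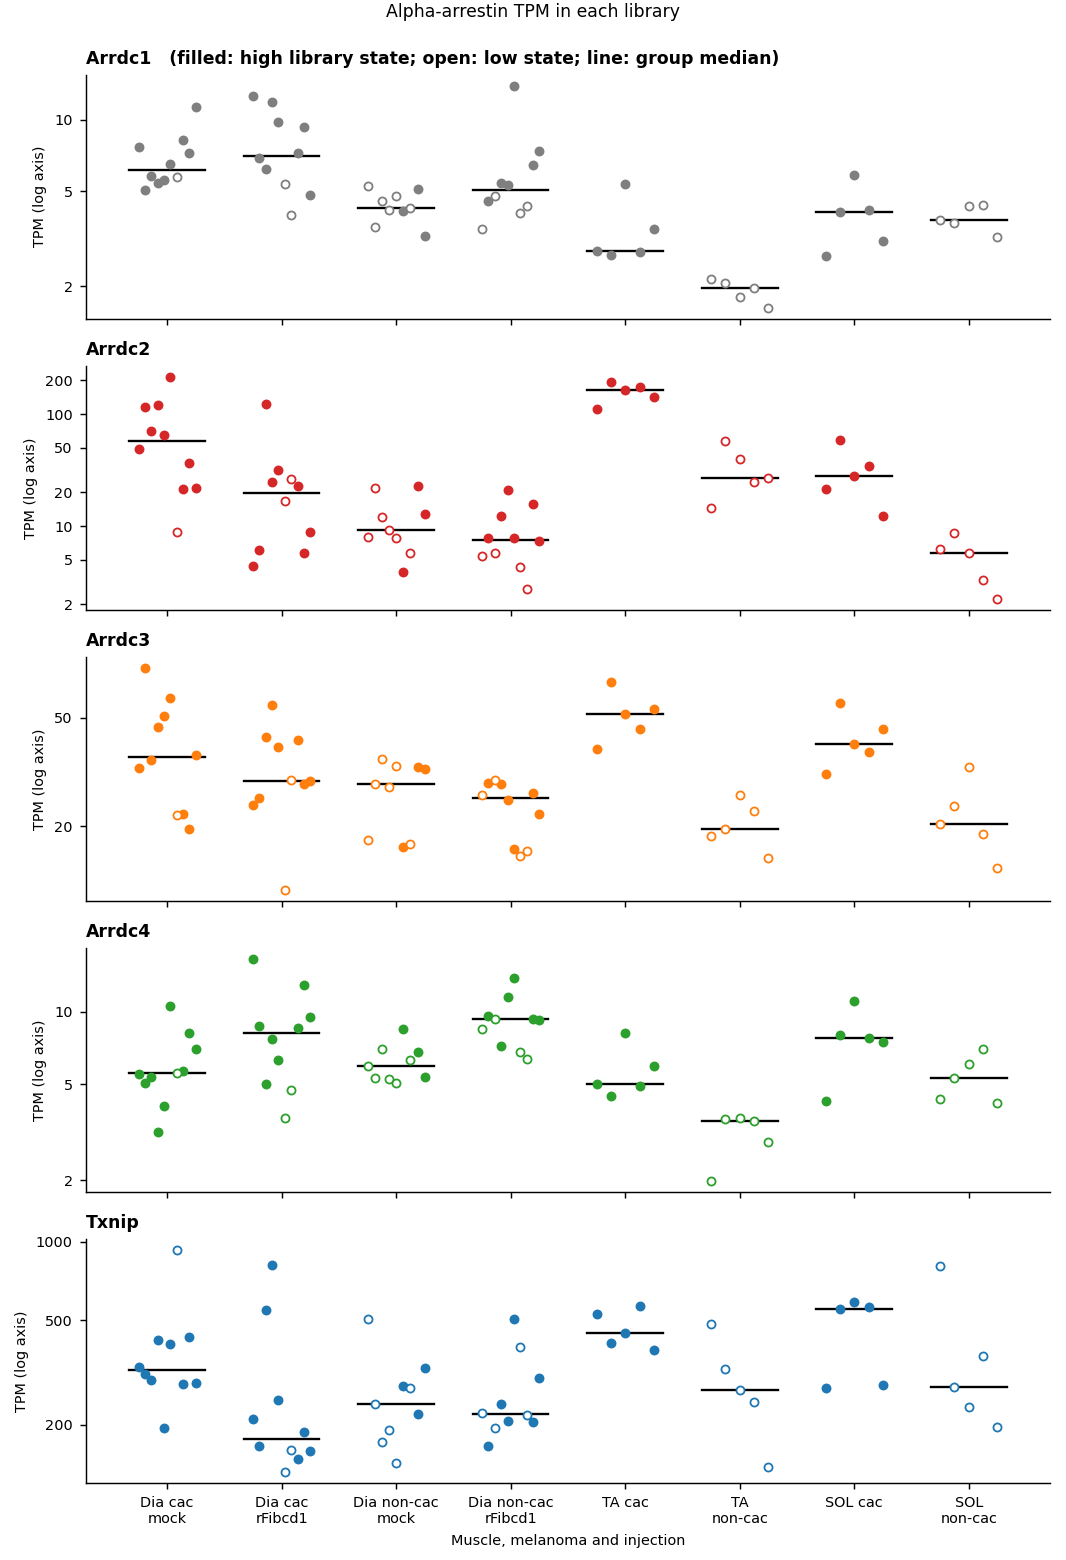
TPM of each alpha-arrestin (log axis) in every library, by muscle, melanoma (cac, cachectic; non-cac, non-cachectic) and injection, with filled points for high-state and open points for low-state libraries and a line at each group median. Cachectic TA has all 5 Arrdc2 values between 110 and 192 TPM, above the highest non-cachectic TA library at 57.4 TPM.

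Whether the cachectic melanoma changes these genes was asked first in the mock-injected diaphragm. Arrdc2 and Arrdc1 were higher in cachectic mice, so 2 of 5 members passed the test, in a comparison that called 33.5% of 13426 genes and 30.9% in this direction (limma, adjusted p under 0.05). Arrdc2 had a lowest, median and highest value of 8.81, 57.1 and 215 TPM in cachectic and 3.90, 9.28 and 22.6 TPM in non-cachectic libraries. Of the cachectic libraries 7 of 10 lay above every non-cachectic one, and the lowest cachectic library was the only low-state library of its group. The log2 fold change of Arrdc2 was 2.21 (SE 0.491, limma adjusted p = 0.0010), a 4.63-fold difference on the TPM + 1 scale, and 0.156% of all genes had a higher one. Within the high-state libraries, where 5.69% of genes were called, it was 2.41 (limma adjusted p = 0.0542).

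Arrdc1, the vesicle-budding member, had 5.06, 6.17 and 11.3 TPM as lowest, median and highest value in cachectic and 3.26, 4.28 and 5.27 TPM in non-cachectic libraries. Of the cachectic libraries 9 of 10 lay above all non-cachectic ones. The log2 fold change was 0.53 (SE 0.177, limma adjusted p = 0.0198). The call was lost with library state as a term, at 0.32 (limma adjusted p = 0.241), and after median-ratio scaling, which centres the genes, at 0.34 (limma adjusted p = 0.0748). Of the markers given above 2 of 5 macrophage, 3 of 4 neutrophil, 3 of 5 endothelial and 1 of 5 adipocyte markers were also called higher, beside 30.9% of all genes, and their part in this difference was not tested.

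The other 3 members did not pass in this comparison. Arrdc3, the integrin adaptor, had 19.6, 35.9 and 76.3 TPM as lowest, median and highest value in cachectic and 16.7, 28.6 and 35.2 TPM in non-cachectic libraries. The groups overlapped, with 5 of 10 cachectic libraries above every non-cachectic one, and the log2 fold change was 0.48 (SE 0.230, limma adjusted p = 0.0984). Txnip had 194, 322 and 926 TPM in cachectic and 142, 240 and 504 TPM in non-cachectic libraries. Its highest cachectic value came from the low-state library that was lowest for Arrdc2, and the log2 fold change was 0.54 (SE 0.286, limma adjusted p = 0.137). Arrdc4 had 3.17, 5.55 and 10.5 TPM against 5.07, 5.96 and 8.43 TPM, and its log2 difference was -0.07 (SE 0.183, limma adjusted p = 0.769; 95% interval -0.44 to 0.30).

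In TA all 5 members were higher in cachectic mice, where 60.2% of 11105 genes were called and 56.4% were higher (limma, adjusted p under 0.05). The median of the members was 0.78 on the log2 scale, beside 0.41 over all genes. After median-ratio scaling, with a median of -0.01 over all genes, Arrdc2 and Arrdc3 alone of the 5 stayed past the threshold, and Arrdc1, Arrdc4 and Txnip kept their direction without a call.

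Arrdc2 was at 110, 144, 165, 174 and 192 TPM in cachectic TA. In non-cachectic TA it was at 14.6, 24.6, 26.6, 40.0 and 57.4 TPM. The groups did not overlap, and the log2 fold change of Arrdc2 was 2.35 (SE 0.294, limma adjusted p = 0.00025). Arrdc3 was at 38.5, 45.7, 51.7, 54.0 and 68.0 TPM in cachectic TA. In non-cachectic TA it was at 15.3, 18.5, 19.5, 22.7 and 26.1 TPM. The groups did not overlap here either, and the log2 fold change of Arrdc3 was 1.29 (SE 0.168, limma adjusted p = 0.00032).

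Txnip was at 386, 411, 449, 528 and 569 TPM in cachectic TA. In non-cachectic TA it was at 137, 244, 270, 325 and 485 TPM. The highest non-cachectic library lay within the cachectic range, and the log2 fold change of Txnip was 0.78 (SE 0.264, limma adjusted p = 0.0256). By exact Mann-Whitney tests 4 of 5 members were called in TA, where these tests called 66.1% of 11105 genes, and Txnip was not (adjusted p = 0.0783). The Txnip call was also lost with no filter on low values (limma adjusted p = 0.0550), after median-ratio scaling, at 0.28 (limma adjusted p = 0.504), without the highest cachectic library (569 TPM), at 0.71 (limma adjusted p = 0.0565), and without the non-cachectic library at 244 TPM, at 0.74 (limma adjusted p = 0.0527).

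Arrdc4 was at 4.48, 4.91, 4.99, 5.92 and 8.11 TPM in cachectic TA. In non-cachectic TA it was at 1.98, 2.88, 3.53, 3.58 and 3.63 TPM. The groups did not overlap, and the log2 fold change of Arrdc4 was 0.69 (SE 0.169, limma adjusted p = 0.0072). After median-ratio scaling it was 0.29 (limma adjusted p = 0.0987). Arrdc1 was at 2.71, 2.79, 2.80, 3.47 and 5.39 TPM in cachectic TA and at 1.63, 1.81, 1.97, 2.06 and 2.15 TPM in non-cachectic TA. All cachectic libraries were above all non-cachectic ones, and the log2 difference was 0.57 (SE 0.153, limma adjusted p = 0.0103), which was 0.20 after median-ratio scaling (limma adjusted p = 0.0599). In TA 4 of 4 macrophage, 2 of 2 neutrophil and 3 of 5 endothelial markers were called higher and 1 endothelial marker lower, beside 56.4% of all genes higher, and their part in the Arrdc1 and Arrdc4 values was not tested.

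In soleus Arrdc2 and Arrdc3 were higher in cachectic mice, 2 of 5 members, where 25.1% of 11957 genes were called and 17.5% were higher (limma, adjusted p under 0.05). Arrdc2 was at 12.3, 21.4, 27.9, 34.1 and 59.3 TPM in cachectic soleus. In non-cachectic soleus it was at 2.25, 3.28, 5.80, 6.29 and 8.69 TPM. The groups did not overlap, and the log2 fold change of Arrdc2 was 2.28 (SE 0.386, limma adjusted p = 0.0022). Arrdc3 was at 31.1, 37.6, 40.3, 45.7 and 56.8 TPM in cachectic and at 14.0, 18.7, 20.4, 23.8 and 33.1 TPM in non-cachectic soleus. The ranges overlapped by 1 library on each side, and the log2 fold change of Arrdc3 was 0.94 (SE 0.208, limma adjusted p = 0.0078). By exact Mann-Whitney tests, which called 20% of genes here, Arrdc2 was called and Arrdc3 was not (adjusted p = 0.0625). In soleus 2 of 7 myofibre and 2 of 2 neutrophil markers were called higher and 3 of 5 fibroblast markers lower, and their part was not tested.

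The other members did not pass in soleus. Arrdc4 was at 4.24, 7.51, 7.79, 8.01 and 11.1 TPM in cachectic and at 4.18, 4.32, 5.29, 6.09 and 6.97 TPM in non-cachectic soleus. The log2 fold change of Arrdc4 was 0.42 (SE 0.201, limma adjusted p = 0.142), and without the lowest cachectic library it was 0.60 (limma adjusted p = 0.0160). Txnip was at 275, 283, 551, 561 and 590 TPM in cachectic and at 196, 234, 277, 365 and 808 TPM in non-cachectic soleus, with the highest value of all in the non-cachectic group. Its log2 fold change was 0.38 (SE 0.367, limma adjusted p = 0.480), and it was 0.71 without the library at 808 TPM and 0.20 without the library at 196 TPM. The log2 difference of Arrdc1 was -0.00 (SE 0.156, limma adjusted p = 0.996), with a 95% interval from -0.34 to 0.34.

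Arrdc2 was the single member called higher in cachectic mice in all 3 muscles, as were 12.3% of the 10914 genes tested in each. Its log2 fold changes of 2.21, 2.35 and 2.28 lay close together although its level differed widely between the muscles.

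**Figure D2:**
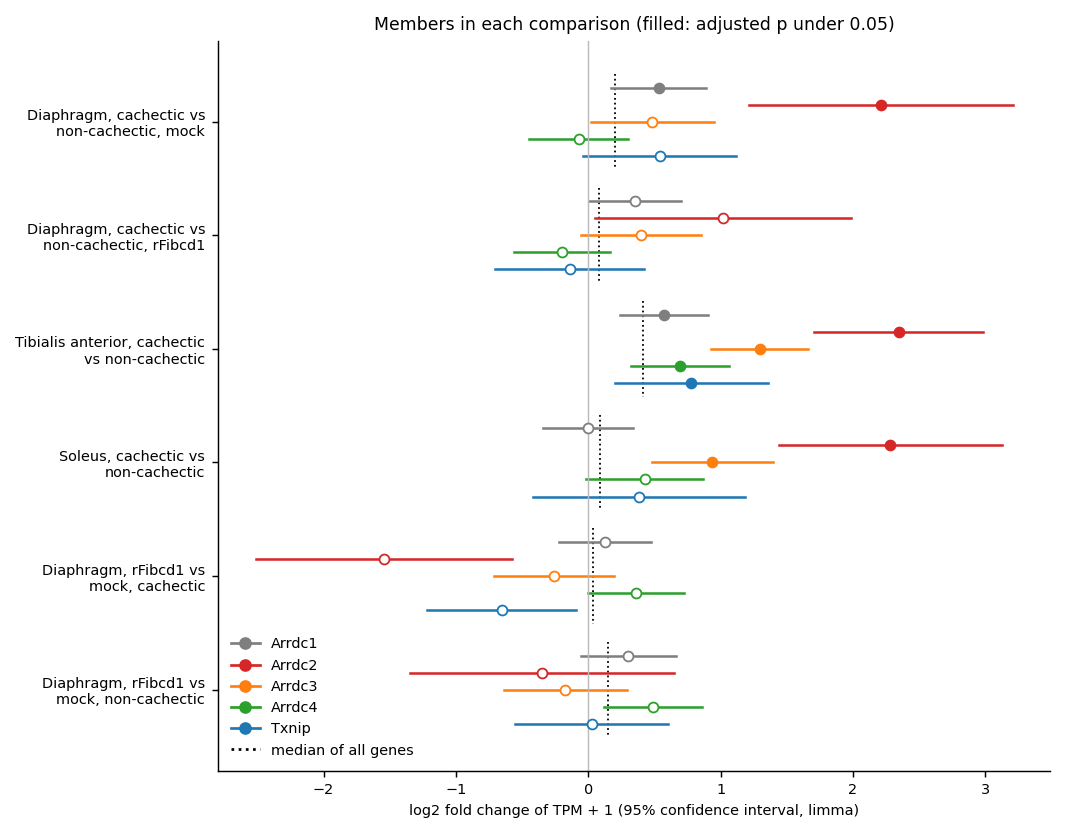
Log2 fold change of TPM + 1 with its 95% confidence interval (limma) for each alpha-arrestin in 6 comparisons, filled where the adjusted p was under 0.05, with a dotted line at the median of all genes. Arrdc2 stands at 2.21, 2.35 and 2.28 between the melanomas in the mock diaphragm, TA and soleus, and at -1.54 for rFibcd1 against mock in cachectic mice.

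Muscles were compared in a joint fit of the 6 groups whose labels name no rFibcd1. None of the 5 members passed for the difference in melanoma effect between diaphragm and TA (5.04% of 13501 genes called), between diaphragm and soleus (2.52%) or between TA and soleus (20.4%). An unadjusted p under 0.05 (limma) was met by 2, 1 and 1 members. The last of these members by p ranked 2251, 928 and 3290 of 13501 genes, so at least that many genes met it. For Arrdc2 the difference of log2 fold changes was -0.13 (95% interval -1.52 to 1.25) for diaphragm against TA and 0.06 (95% interval -1.52 to 1.65) for TA against soleus, so effects that differ by more than 2-fold remain possible. Arrdc4 came closest between diaphragm and TA, at -0.77 (SE 0.249, limma adjusted p = 0.0633). It passed without a cachectic library of the mock diaphragm (-0.85), without either of 2 of TA (-0.80 and -0.83) and without 1 of soleus (-0.77), with limma adjusted p from 0.0234 to 0.0498. With the column number as a block between muscles, a pairing described below, 16.2% of genes were called for diaphragm against TA. Arrdc4 passed at -0.96 (limma adjusted p = 0.00648) and Arrdc3 at -0.59 (limma adjusted p = 0.0436), beside -0.81 (limma adjusted p = 0.146) for Arrdc3 without the block. The block draws only on the 10 numbers found in all the muscles, so diaphragm libraries with other numbers do not add to these estimates. Those kept were all high-state (cachectic) or all low-state (non-cachectic), so state and melanoma cannot be told apart there. The block changed the sign of the Arrdc2 differences of the diaphragm with TA and with soleus. Arrdc1 came closest between TA and soleus, at 0.57 (SE 0.227, limma adjusted p = 0.0661, or 0.0228 with the block, which called 42% of genes there). It too passed without any of 4 cachectic libraries, 1 of the mock diaphragm, 2 of TA and 1 of soleus (0.57 to 0.70, limma adjusted p from 0.0240 to 0.0472).

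In non-cachectic mice the members differed between muscles as many genes did. Between diaphragm and TA 3 of 5 were called, with 72.5% of 13501 genes called. Arrdc1 was higher in the diaphragm by 0.87 (limma adjusted p = 1.8e-06) and Arrdc4 by 0.80 (limma adjusted p = 0.000154), and Arrdc2 was lower by -1.45 (limma adjusted p = 0.0083) on the log2 scale. Arrdc3 differed by 0.35 (limma adjusted p = 0.195). It passed with the block at 0.45 (limma adjusted p = 0.00585), where 74.5% of genes were called. It turned to -0.21 after median-ratio scaling (limma adjusted p = 0.475), so its direction depends on the scaling. The median of all genes was 0.44 here, and after scaling Arrdc1 and Arrdc4 were at 0.46 and 0.35. Between TA and soleus 3 of 5 were called, with 69.5% of genes called. Arrdc2 was higher in TA by 2.39 (SE 0.551, limma adjusted p = 0.00029), and its TA and soleus values listed above do not overlap. Arrdc1 was lower in TA by -0.74 (limma adjusted p = 0.000138) and Arrdc4 by -0.63 (limma adjusted p = 0.0063), where the median of all genes was -0.47. After median-ratio scaling Arrdc1 was at -0.30 (limma adjusted p = 0.0466) and the Arrdc4 call was lost, at -0.13 (limma adjusted p = 0.565). Between diaphragm and soleus 0 of 5 were called by limma, none at an unadjusted p under 0.05, with 38.8% of genes called. The block, for which 8 of 10 numbers had an r over 0.1 between these muscles, called 3 of 5 members and 48% of genes. These members were Arrdc2 at 1.05 (limma adjusted p = 0.000663), Arrdc3 at 0.38 (limma adjusted p = 0.0277) and Txnip at -0.54 (limma adjusted p = 0.0129). Arrdc2 was higher in the diaphragm in all 5 non-cachectic numbers.

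The action of rFibcd1 was asked in the diaphragm. In cachectic mice rFibcd1 against mock called 0 of 5 members, where 0.0447% of 13426 genes were called (6 genes). An unadjusted p under 0.05 was met by 3 of 5 (limma), the last of them, Arrdc4, at rank 1398 of 13426 genes by p. Dunn tests called 0 of the 13426 genes, so they cannot set the members apart. Arrdc2 had a lowest, median and highest value of 4.44, 19.8 and 123 TPM in cachectic rFibcd1 libraries, beside 8.81, 57.1 and 215 TPM with mock. The rFibcd1 group had 3 libraries below all mock ones, and its highest library lay far above its next, at 31.4 TPM. The log2 fold change of Arrdc2 was -1.54 (SE 0.478, unadjusted limma p = 0.00255, adjusted p = 0.253), and 99.98% of all genes had a higher one. Without the library at 123 TPM it was -1.86 (limma adjusted p = 0.0375), with 0.947% of genes called, and within the high-state libraries -1.89 (limma adjusted p = 0.0422), a setting that called 5.57% of genes.

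Txnip had 131, 176 and 813 TPM as lowest, median and highest value in cachectic rFibcd1 libraries, beside 194, 322 and 926 TPM with mock. Of the rFibcd1 libraries 6 of 10 were below every mock library, and the highest values of the groups were close. The log2 fold change of Txnip was -0.65 (SE 0.278, unadjusted limma p = 0.0243, adjusted p = 0.405). Arrdc4 had 3.63, 8.12 and 16.5 TPM with rFibcd1 and 3.17, 5.55 and 10.5 TPM with mock, and its log2 difference was 0.36 (SE 0.178, unadjusted limma p = 0.0494, adjusted p = 0.474). Arrdc3 and Arrdc1 had log2 fold changes of -0.26 (limma adjusted p = 0.711) and 0.12 (limma adjusted p = 0.831).

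In non-cachectic mice 0 of 5 members were called between rFibcd1 and mock, where the call rate was 0.417% (56 genes). At an unadjusted p under 0.05 there was 1 of 5 (limma), which was Arrdc4, at rank 628 of 13426 genes by p. Next came Arrdc1, at an unadjusted limma p of 0.0949 and rank 3945. Dunn tests called 0 members and 0.104% of genes. Arrdc4 had 6.37, 9.27 and 13.8 TPM as lowest, median and highest value with rFibcd1 and 5.07, 5.96 and 8.43 TPM with mock. Of the rFibcd1 libraries 6 of 10 lay above all mock libraries, and 6 of 9 mock libraries lay below all rFibcd1 libraries. The log2 fold change of Arrdc4 was 0.49 (SE 0.183, unadjusted limma p = 0.0115, adjusted p = 0.245), and in a fit of these 2 groups alone, where 19.6% of genes were called, the adjusted p was 0.0140 (limma). Arrdc2, Arrdc3, Txnip and Arrdc1 had log2 fold changes of -0.35, -0.17, 0.03 and 0.30.

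In this comparison of non-cachectic mice 3 of 14 clock genes were higher and 6 were lower (median -0.89, beside 0.15 over all genes). Arntl, a core clock activator, was higher by 2.25 (limma adjusted p = 0.0044) and Dbp, an output factor of the clock, was lower by -2.46 (limma adjusted p = 0.0093). Within groups Arrdc4 was correlated with Arntl (r = 0.57 over the 39 diaphragm libraries). Over the 10 libraries of each limb muscle Arrdc4 had r = 0.68 with Arntl in TA and 0.54 in soleus. Arrdc1 had 0.93 and 0.49, beside 0.15 in the diaphragm. In TA Arrdc1 also had r = 0.87 with Pcna-ps2, -0.83 with the summed myofibre markers and -0.85 with the mitochondrial percent. A single cachectic TA library was highest for both genes (Arrdc1 5.39 TPM, Arrdc4 8.11 TPM). It had the lowest mitochondrial share of its group, at 25.1%. Between the melanomas 3 clock genes were higher and 2 lower of 13 in TA (60.2% of all genes called), 3 higher and 6 lower of 13 in soleus (25.1%), 1 higher and 1 lower of 14 in the mock diaphragm (33.5%) and 4 higher and 2 lower of 14 with rFibcd1 (9.11%). The part of the clock genes in the Arrdc4 and Arrdc1 values was not tested.

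Because Arrdc4 leaned the same way in both melanomas, rFibcd1 against mock was averaged over them, a comparison added after the values were seen. It called 0.857% of genes and 0 of 5 members, 2 of them with an unadjusted p under 0.05 (Arrdc2 and Arrdc4). The averaged log2 fold change of Arrdc4 was 0.42 (SE 0.128, limma adjusted p = 0.0871) and that of Arrdc2 was -0.95 (SE 0.343, limma adjusted p = 0.139).

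With rFibcd1 in both groups, 0 of 5 members were called between the melanomas, where the call rate was 9.11%. At an unadjusted p under 0.05 there were 2 of 5 (limma), the last of them, Arrdc1, at rank 3264 of 13426 genes by p. Dunn tests called 0 of the 13426 genes here too, so they cannot set the members apart. Arrdc2 had 4.44, 19.8 and 123 TPM in cachectic and 2.74, 7.55 and 20.9 TPM in non-cachectic rFibcd1 libraries. Of the cachectic libraries 5 of 10 lay above all non-cachectic ones, and the log2 difference was 1.02 (SE 0.478, limma adjusted p = 0.176). Arrdc1 differed by 0.35 (limma adjusted p = 0.192), and by 0.49 without the non-cachectic library at 13.9 TPM (limma adjusted p = 0.0292), with 14.2% of genes called. Arrdc3, Txnip and Arrdc4 differed by 0.40, -0.14 and -0.20.

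These comparisons share groups, and a call with mock beside none with rFibcd1 does not show a difference, so the interaction was tested. It called 0.0223% of genes (3 genes) and 0 of 5 members, none of them at an unadjusted p under 0.05 (limma). The melanoma effect on Arrdc2 was smaller with rFibcd1 by -1.19 on the log2 scale (95% interval -2.58 to 0.19, limma adjusted p = 0.624), and that on Txnip by -0.68 (95% interval -1.49 to 0.13, limma adjusted p = 0.634).

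Columns of the 3 muscles carry shared numbers, 10 of which occur in mock diaphragm, TA and soleus. The labels do not say whether a number marks an animal. After the group mean was subtracted, Txnip was correlated between columns of the same number, with r = 0.87 (rho = 0.88, n = 10) for diaphragm and TA, r = 0.82 (rho = 0.62) for diaphragm and soleus and r = 0.66 (rho = 0.54) for TA and soleus. The median r of all genes was 0.39, 0.33 and 0.52, and 1.81%, 5.10% and 35.4% of genes had a higher r than Txnip. The non-cachectic number with the highest Txnip in the diaphragm, at 504 TPM, was also the highest of its group in TA, at 485 TPM, and in soleus, at 808 TPM. The lowest number, at 142 TPM in the diaphragm, was the lowest in the others, at 137 and 196 TPM.

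Arrdc2 had r = 0.73, 0.64 and 0.43 and Arrdc3 had r = 0.57, 0.48 and 0.88 for the same pairs of muscles. In all 10 numbers Arrdc2 was highest in TA and lowest in soleus. Arrdc4 had r = 0.15, -0.05 and 0.64 and Arrdc1 had r = -0.06, -0.35 and 0.63, so for these genes r with the diaphragm was 0.15 or lower. By rank, Arrdc4 had rho = 0.10, 0.03 and 0.53 and Arrdc1 had rho = 0.31, -0.21 and 0.21. For Arrdc1, rho between TA and soleus was thus not above that between diaphragm and TA. The same cachectic number was highest of its group for Arrdc1 in TA (5.39 TPM) and soleus (5.84 TPM). The points share group, library state and any batch that goes with the number.

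**Figure D3:**
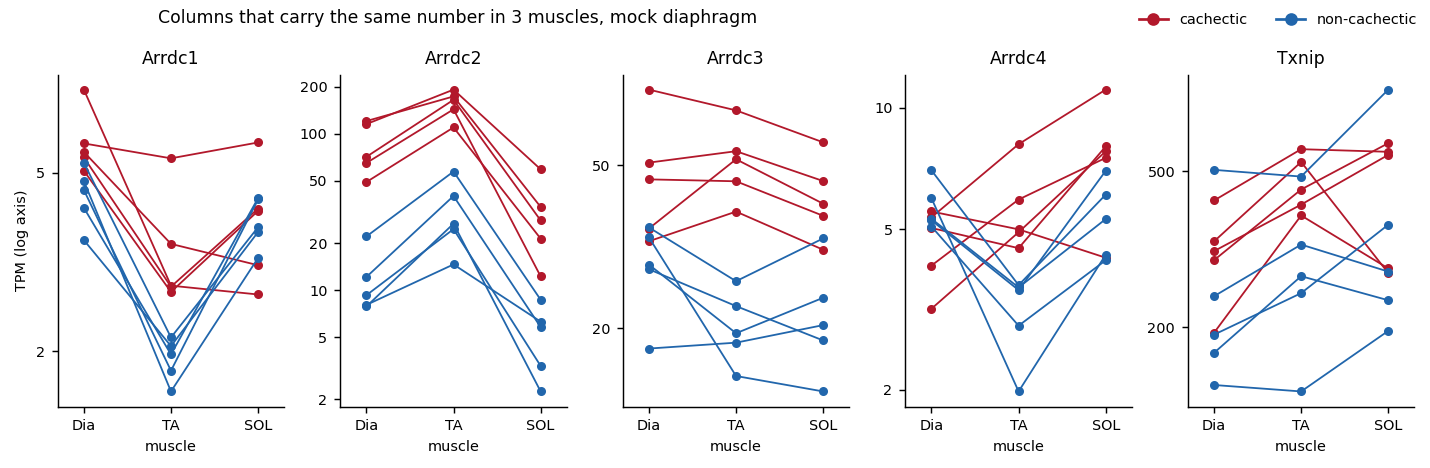
TPM (log axis) of each alpha-arrestin in diaphragm (Dia, mock), TA and soleus (SOL), with a line joining columns of the same number, 5 cachectic (red) and 5 non-cachectic (blue). The blue Txnip line at 504, 485 and 808 TPM is the highest of its group in all 3 muscles, and all 10 Arrdc2 lines peak in TA.

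The partners of alpha-arrestins were described by counts in lists chosen with earlier results of these data known. Of 10 cargo and sorting genes 6 were higher in the cachectic mock diaphragm (median 0.31, beside 0.20 over all genes), 9 of 10 in TA (median 0.55 beside 0.41) and 6 of 9 in soleus (median 0.45 beside 0.09), and 0 were lower. The shares of all genes called higher were 30.9%, 56.4% and 17.5%. Slc2a1, the basal glucose transporter and a Txnip cargo, was higher by 0.73 (limma adjusted p = 0.0028) in the mock diaphragm, 0.99 (limma adjusted p = 0.0032) in TA and 1.01 (limma adjusted p = 0.00060) in soleus. Slc2a3, another glucose transporter, was higher by 0.42 in the mock diaphragm and 1.16 in TA. Slc2a4, the insulin-responsive transporter, was called in TA alone of the 3, at 0.38 (limma adjusted p = 0.036). Tsg101, the Arrdc1 partner in vesicle budding, was higher by 0.31, 0.58 and 0.36, and Vps4a, the ATPase that completes budding, by 0.35, 0.72 and 0.30.

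The ubiquitin ligases that alpha-arrestins recruit were called higher in 3 of 8 cases in the mock diaphragm (median 0.22 beside 0.20 over all genes, of which 30.9% were higher) and in 6 of 8 in TA (median 0.55 beside 0.41, with 56.4% of all genes higher). In soleus 0 of 8 were higher and Wwp1 was lower, by -0.55 (limma adjusted p = 0.0086). Nedd4l had the largest difference in TA, at 1.15 (limma adjusted p = 0.00022). Of 5 thioredoxin genes, the system that Txnip binds, 1 was higher in the mock diaphragm and 3 in each limb muscle (medians 0.21, 0.52 and 0.32 in the mock diaphragm, TA and soleus, beside 0.20, 0.41 and 0.09 over all genes). In the same order 30.9%, 56.4% and 17.5% of all genes were called higher. Txn1, cytosolic thioredoxin, was higher by 1.20 (limma adjusted p = 0.00097) in TA and 0.54 (limma adjusted p = 0.0091) in soleus. Of the other arrestin-fold genes 3 of 5 were higher in the mock diaphragm, 5 of 5 in TA and 1 of 5 in soleus, beside 30.9%, 56.4% and 17.5% of all genes (medians 0.28, 0.60 and 0.03), with Arrb1, beta-arrestin 1, called in each at 0.55, 0.93 and 0.78.

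Regulators were given beside them. Of 3 glucose-sensing factors Mlx was higher in the mock diaphragm, by 0.39 (limma adjusted p = 0.0019). None was called in TA or soleus, where 60.2% and 25.1% of all genes were called. An unadjusted p under 0.05 was met by 1 and 1 of 3 there (limma). Among all genes, Txnip at an unadjusted limma p of 0.0119 ranked 5183 of 11105 in TA. Arrdc4 at an unadjusted limma p of 0.0564 ranked 4746 of 11957 in soleus. Of 12 genes known to respond to glucocorticoids or FoxO factors 9 were higher in the mock diaphragm (median 0.91 beside 0.20 over all genes, of which 30.9% were higher), 10 in TA (1.77 beside 0.41, 56.4%) and 8 in soleus (0.87 beside 0.09, 17.5%). With rFibcd1 in both groups 3 were higher (0.30 beside 0.08), where 9.11% of genes were called. In the mock diaphragm Mt2, a metallothionein, was higher by 4.22, Fkbp5, a chaperone induced by glucocorticoids, by 2.74, and Cebpd, a transcription factor of the acute response, by 2.25. For rFibcd1 against mock in cachectic mice 0 of these 12 were called (limma), where 0.0447% of all genes were called. The median was -0.80, beside 0.03 over all genes. An unadjusted p under 0.05 was met by 8 of the 12 (limma). Among all genes there, Arrdc4 at an unadjusted limma p of 0.0494 ranked 1398 of 13426. Of the receptors and FoxO factors themselves, Foxo6 was lower in all 3 muscles, by -0.59, -1.19 and -1.28, Foxo3 was higher in the mock diaphragm and TA, by 0.63 and 0.75, and Nr3c1, the glucocorticoid receptor, had -0.20, 0.01 and -0.34 with no call.

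The genes most like each member were found by the correlation of log2(TPM + 1) within groups over the 39 diaphragm libraries, among the 9055 genes whose mean TPM reached 5. They are descriptions, and the libraries share state and composition. Arrdc2 was most like Fam117b (r = 0.819), Map3k6, a stress-kinase regulator (0.788), Klf15, a glucocorticoid-induced factor (0.774), Ddit4, an inhibitor of mTORC1 (0.766), and Acer2, a ceramidase (0.760). These 5 were also called higher in cachectic mice in the mock diaphragm, TA and soleus, with Map3k6 at 2.20, 2.33 and 1.93 and Ddit4 at 2.17, 2.69 and 1.94. For rFibcd1 against mock in cachectic mice Ddit4 had -1.36 (limma adjusted p = 0.131) and Acer2 -0.92 (limma adjusted p = 0.132).

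Arrdc3 was most like Nr3c2, the mineralocorticoid receptor (r = 0.794), Lrig1 (0.775), Klf9 (0.774), Tnrc6b (0.771) and Lin52 (0.758), none of which was called between the melanomas in the mock diaphragm. Nr3c2 was lower in cachectic TA, by -0.42 (limma adjusted p = 0.047), and soleus, by -0.48 (limma adjusted p = 0.017), where Arrdc3 was higher. Txnip had the weakest likeness, to Abtb1 (r = 0.728), Gadd45b, a stress-response gene (0.719), Tfap4 (0.688), Klf11 (0.678) and Cited2 (0.655). Arrdc4 was most like Gna13, a G-protein subunit (r = 0.835), Rfwd3 (0.818), Snx18, a sorting nexin (0.817), Nedd9 (0.810) and Nfkb1 (0.808).

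Arrdc1 was most like Coro1b, an actin regulator (r = 0.947), Necap2, an endocytic adaptor (0.936), Npc2, a lysosomal cholesterol carrier (0.934), Arpc5, an actin-branching subunit (0.930), and Shisa5 (0.930). Within groups Arrdc1 also followed the summed macrophage (r = 0.84), fibroblast (r = 0.66), adipocyte (r = 0.58), endothelial (r = 0.48) and neutrophil markers (r = 0.45). Arrdc4 followed the fibroblast (r = 0.64), macrophage (r = 0.56), endothelial (r = 0.51) and red blood cell markers (r = 0.49), and Txnip the endothelial markers (r = 0.53). Arrdc2 had r between -0.25 and 0.19 with each of the 10 marker sums. Among the members themselves Arrdc2 and Arrdc3 (r = 0.62) and Arrdc1 and Arrdc4 (r = 0.56) went together, and Txnip had its highest r with Arrdc1 (0.31). The pairs Arrdc2 with Arrdc3 had r = 0.41 and 0.55, and Arrdc1 with Arrdc4 r = 0.63 and 0.89, over the 10 TA and 10 soleus libraries.

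**Figure D4:**
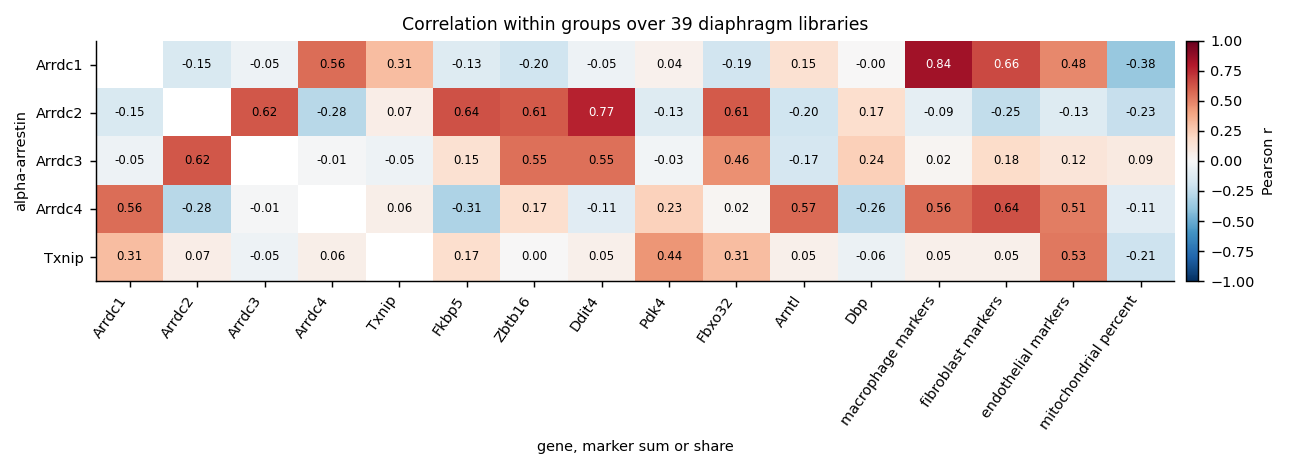
Pearson r of log2(TPM + 1) (mitochondrial percent untransformed) after subtraction of group means over 39 diaphragm libraries, for each alpha-arrestin (rows) against the other members, glucocorticoid-response and clock genes, 3 marker sums and the mitochondrial percent (columns). Arrdc2 is red against Ddit4 (0.77), Fkbp5 (0.64) and Fbxo32 (0.61), Arrdc1 against macrophage markers (0.84), and Txnip against Pdk4 (0.44).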

How the data were processed

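RNA-seq of mouse muscle was analysed from the deposited table, in which the authors gave TPM per gene symbol, computed with CLC Genomics Workbench on mm10. The gene annotation and read depths are not given in the sources used here, so depth is unknown and no counting interval is given. The labels and the methods differ on the library kit and the sequencer.

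TPM + 1 was log2-transformed. Genes with TPM of at least 1 in as many libraries as the smallest group were fitted with limma 3.58.1 (R 4.3.3, trended variance), two-sided, with Benjamini-Hochberg adjustment over all genes tested and calls at an adjusted p under 0.05. The diaphragm groups shared a fit, TA and soleus had their own, and a fit of the 6 groups whose labels name no rFibcd1 compared muscles. The diaphragm, TA and soleus fits were tested on simulated data, each for a single comparison, and the fit that compared muscles was not tested. Python used numpy 2.4.6, pandas 2.3.3, scipy 1.17.1 and matplotlib 3.10.9.

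Every member was named in each comparison, list examples by the largest change among those called, and the 5 most correlated genes per member. Other partners named were picked as known cargo or regulators after their values were seen. A gene of the cargo list is not reported here by name. The members and lists were chosen with earlier results of these data known.

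Column numbers, taken from the table's headers, were checked for pairing by correlating deviations from group means over all genes. The mean r of same-numbered libraries was 0.313 for diaphragm and TA (10 of 10 over 0.1), 0.364 for TA and soleus (10 of 10) and 0.234 for diaphragm and soleus (8 of 10), and block values are given where they change a call.

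Alternatives were a pseudocount of 0.1, no filter, a mean TPM of at least 5, median-ratio scaling, library state as a term, high-state libraries alone, fits of 2 groups, Dunn and Mann-Whitney tests, the number block and leaving out each library.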

Additional observations from a re-analysis of the deposited data

Results flagged for a closer look

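In 6 of the 40 sets of a gene and a group, the highest library stood apart from the rest by Dixon's criterion, which chance meets in about 1 in 20 groups. For Arrdc1 these were a cachectic mock diaphragm library at 11.32 TPM (next 8.184), a non-cachectic rFibcd1 diaphragm library at 13.9 TPM (next 7.376) and a cachectic TA library at 5.387 TPM (next 3.472). For Arrdc2 it was a cachectic rFibcd1 diaphragm library at 123.4 TPM (next 31.41). For Txnip they were a cachectic mock diaphragm library at 925.9 TPM (next 433.3), which was the low-state library of that group and its lowest for Arrdc2, at 8.811 TPM, and a non-cachectic soleus library at 807.9 TPM (next 365.3), whose number was also highest for Txnip in non-cachectic TA.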

How the results depend on the processing

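Of 3153 alternative values, 61 changed sign, 22 passed and 13 lost the threshold, and 23 counts of members called moved by more than 1.5 times. The cause was not tested. Members called in the mock diaphragm (2) became 1 with median-ratio scaling or the state term and 0 within high-state libraries. For rFibcd1 they became 1 within high-state libraries (cachectic), where the share of genes called was 5.57% instead of 0.0447%, and 1 in the fit of 2 groups (non-cachectic). In TA they became 3 with a mean TPM of at least 5 (62.5% of genes called), which removes 2 members, and 2 with median-ratio scaling (40.3%). In soleus they became 1 with Mann-Whitney tests (20%). For the melanoma effect they became 1 (diaphragm against TA) and 1 (TA against soleus) with a pseudocount of 0.1. With the number block, which called 16.2%, 42% and 48% of genes, they became 2 and 1 there and 3 between non-cachectic diaphragm and soleus. The block reversed Arrdc2 to 0.40 (diaphragm against TA) and 0.46 (against soleus). Median-ratio scaling reversed Txnip for rFibcd1 in non-cachectic mice (-0.15), the interaction of Arrdc3 (0.063) and Arrdc4 (0.0039), the diaphragm against TA effect of Arrdc1 (0.11), Arrdc2 (0.12) and Txnip (0.026), the TA against soleus effect of Arrdc2 (-0.33), Arrdc3 (-0.039), Arrdc4 (-0.043) and Txnip (-0.017), and in non-cachectic mice Arrdc3 between diaphragm and TA (-0.21) and Arrdc3 (0.53) and Txnip (0.35) between TA and soleus. The pseudocount of 0.1 reversed the TA against soleus effect of Arrdc2 (-0.11). The state term reversed the interaction of Arrdc3 (0.052) and Arrdc4 (0.020). Within high-state libraries Txnip between melanomas with rFibcd1 (0.0099), Arrdc2 (0.043) and Txnip (-0.12) for rFibcd1 in non-cachectic mice and the interaction of Arrdc4 (0.052) reversed. Leaving out each library gave 0 to 1 members called between melanomas with rFibcd1, for rFibcd1 in cachectic mice, and for the melanoma effect of diaphragm against TA and of TA against soleus. It crossed 0 for Arrdc4 in the mock diaphragm (-0.16 to 0.0037), Txnip for rFibcd1 in non-cachectic mice (-0.086 to 0.16), the interaction of Arrdc3 (-0.18 to 0.061), Arrdc1 in soleus (-0.12 to 0.10), the diaphragm against TA effect of Arrdc1 (-0.11 to 0.10), Arrdc2 (-0.37 to 0.13) and Txnip (-0.45 to 0.0034), the diaphragm against soleus effect of Arrdc2 (-0.34 to 0.20) and Txnip (-0.17 to 0.34), the TA against soleus effect of Arrdc2 (-0.21 to 0.34), and in non-cachectic mice Txnip between diaphragm and TA (-0.38 to 0.074) and Arrdc3 (-0.21 to 0.083) and Txnip (-0.49 to 0.047) between TA and soleus. None of these sign changes concerned a value that passed the threshold as reported.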
